A study of Rattus norvegicus with 6 samples.

Results

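The genes described here act in mitosis: 47 genes listed for their roles in mitotic entry, the spindle, the kinetochore, cytokinesis and chromosome condensation, found in the count table by their symbols. Of these, 46 had a row among the 18718 genes of the table, all 46 passed the filter on low counts, and Ccnb2 had no row under its symbol. The libraries were made from total RNA of HEI-OC1 cells, an established line from the organ of Corti that is generally known as a mouse line immortalised with a temperature-sensitive large T antigen, although the labels give the organism as rat. Which species the reads came from was not tested. There were 2 groups of 3 libraries: cells treated with an siRNA against Hnrnpd, the gene for the RNA-binding protein AUF1 (siHnrnpd 1 to 3), and cells treated with a control siRNA (control 1 to 3), all of the same line in the same serum-containing medium with streptomycin and penicillin. The labels state neither the siRNA dose, nor the time after transfection, nor whether replicates were separate cultures, so the p-values cover the spread over these 6 libraries, and that spread may be technical.

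A cell enters mitosis when the kinase Cdk1, bound to a B-type cyclin, is switched on by Cdc25 phosphatases. Chromosomes are compacted by condensin, captured by spindle microtubules at kinetochores and held back by the spindle checkpoint until all are attached. The anaphase-promoting complex with Cdc20 then marks securin and cyclin B for destruction, and cytokinesis separates the daughters. Transcripts of most of these genes peak in G2 and mitosis, so in bulk RNA their level follows the share of dividing cells, and fewer such cells cannot be told apart from less RNA per cell.

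The libraries held 28984535 to 35842904 gene counts. Hnrnpd, listed as Hnrpd, had 319, 303 and 269 CPM (read counts scaled to a common library size with TMM) in the controls, in order of number, and 177, 200 and 183 CPM in the siHnrnpd libraries. The siHnrnpd mean was 62.8% of the control mean, a log2 change of -0.67, and the groups did not overlap (edgeR adjusted p = 0.0426). The call was lost without control 1, 2 or 3, without siHnrnpd 1 or 3, with the replicate number as a block, and with limma on log2(FPKM + 1). Markers that define hair cells were low: of 12 listed, 8 matched a row, Myo7a, Gfi1, Otof, Slc26a5 and Espn were under 0.1 FPKM in all libraries, and Myo6 reached a mean of 3.89 FPKM. FPKM is the level per length of the gene, as computed by the authors. The summed level of 12 fibroblast markers was 2576 to 2757 FPKM in control and 2517 to 3164 FPKM in siHnrnpd libraries. Vim alone had a mean of 1853 FPKM. Of the 12, 8 reached a mean of 1 FPKM, while Col1a2, Dcn, Acta2 and Postn did not, and Postn was under 0.1 FPKM in all libraries. Of 12 supporting cell markers, 7 matched a row and summed to 36.5 to 48.0 FPKM over all libraries. Cdkn1b, Lfng and Jag1 reached a mean of 1 FPKM, and Prox1, Cdh1 and Tectb were under 0.1 FPKM in all libraries. The 7 matched immune cell markers summed to 1.73 to 2.26 FPKM over all libraries.

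The promoters of mitotic genes share features that the choice of members did not use. Many cell cycle genes carry a cell cycle genes homology region, a short element bound by the DREAM and MuvB complexes, near CCAAT boxes bound by NF-Y. Both sets of letters were searched on both strands in the 250 bases before the start of each gene in a RefSeq promoter table (rat, GRCr8), which held 40 of the 47 genes; Ccna2, Aurkb, Tpx2, Ube2c, Racgap1, Incenp and Foxm1 had no entry. TTTGAA or TTCGAA occurred in 23 of the 40 (57.5%), against 18.5% of 27457 genes in the table. CCAAT occurred in 32 of the 40 (80.0%), against 36.1% of all genes. Both occurred in 21 of the 40 (52.5%), against 7.32%, and neither in Bub1, Mad2l1, Aurka, Kif2c, Ndc80 and Nuf2. The letters TTTGGCGC, TTTCCCGC or TTTCGCGC, forms of the E2F site, occurred in 1 of the 40, Cdk1 (2.5%), against 1.58%. A match is a description of letters in this window, and the sequences are those of rat.

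The 120 bases before the start are printed for 6 genes on which the results turn. Cdk1 and Cdc20 had the highest mean FPKM over the 6 libraries, though Pttg1 overlapped Cdc20 in range. Cenpa had the lowest p. Spc24 and Spc25 are kinetochore partners with changes of opposite sign, and Ect2 varied widely between libraries of the same group. Capitals mark the letters TTTGAA and CCAAT on either strand. ATTGG in capitals is the CCAAT box read on the other strand. In GRCr8 the stretches lie at chr20:19265173-19265292, plus strand (Cdk1), chr5:137255800-137255919, minus strand (Cdc20), chr6:31431553-31431672, minus strand (Cenpa), chr8:28581300-28581419, minus strand (Spc24), chr3:74396719-74396838, minus strand (Spc25) and chr2:111966627-111966746, minus strand (Ect2), upstream of the annotated start in each case.
Cdk1: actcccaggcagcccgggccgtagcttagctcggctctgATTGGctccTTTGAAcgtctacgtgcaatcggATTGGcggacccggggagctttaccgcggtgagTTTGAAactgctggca
Cdc20: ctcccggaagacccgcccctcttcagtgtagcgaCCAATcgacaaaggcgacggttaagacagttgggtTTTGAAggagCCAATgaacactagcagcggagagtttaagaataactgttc
Cenpa: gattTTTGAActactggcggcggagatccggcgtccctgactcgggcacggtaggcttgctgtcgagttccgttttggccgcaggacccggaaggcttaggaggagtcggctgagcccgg
Spc24: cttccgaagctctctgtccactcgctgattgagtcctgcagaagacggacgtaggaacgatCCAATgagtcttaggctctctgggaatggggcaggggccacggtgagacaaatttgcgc
Spc25: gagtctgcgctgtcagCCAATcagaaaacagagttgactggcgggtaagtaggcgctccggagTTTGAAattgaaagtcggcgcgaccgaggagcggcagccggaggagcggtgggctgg
Ect2: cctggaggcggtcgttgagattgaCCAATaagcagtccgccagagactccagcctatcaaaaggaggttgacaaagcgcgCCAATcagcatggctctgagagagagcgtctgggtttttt
In this stretch Cdk1 held 2 matches of TTTGAA and 2 of CCAAT, while Cdc20 held 1 and 2. Spc25 held 1 of each, Spc24 held 1 CCAAT, Cenpa held 1 TTTGAA, and Ect2 held 2 CCAAT.

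The mitotic genes were well expressed in every library. Their read counts ran from 350 (Ncapg in control 3) to 20456 (Cdk1 in control 3), and 17 of the 46 lay above the 90th percentile of FPKM among 18628 genes, with 0 below the 50th. Cdk1, the kinase that drives entry into mitosis, stood first at 345 ± 2.28 FPKM in control and 342 ± 24.3 FPKM in siHnrnpd libraries (SD, n = 3 each). Next came Cdc20, the activator of the anaphase-promoting complex, at 138 ± 6.21 and 146 ± 11.3 FPKM, and Pttg1, or securin, at 142 ± 3.58 and 137 ± 9.45 FPKM, whose ranges overlapped. Cyclin B1 (Ccnb1) followed at 120 ± 2.04 and 121 ± 3.79 FPKM. The lowest levels were those of Ncapg, a condensin subunit (3.22 ± 0.66 and 3.48 ± 0.52 FPKM), the kinetochore motor Cenpe (3.84 ± 0.41 and 4.17 ± 0.68 FPKM) and the kinesin Kif20b (3.79 ± 0.54 and 4.33 ± 0.64 FPKM). Of 45 neighbouring pairs in the order of mean FPKM, 36 had overlapping ranges over the 6 libraries, while Cdk1 and Cdc20 did not overlap. Both genes of a pair come from the same libraries, so overlapping ranges do not show that neighbours had equal levels. Birc5 (106 to 117 FPKM) and Spc24 (76.7 to 108 FPKM) overlapped in range, yet Birc5 was the higher in each library.

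**Figure D1:**
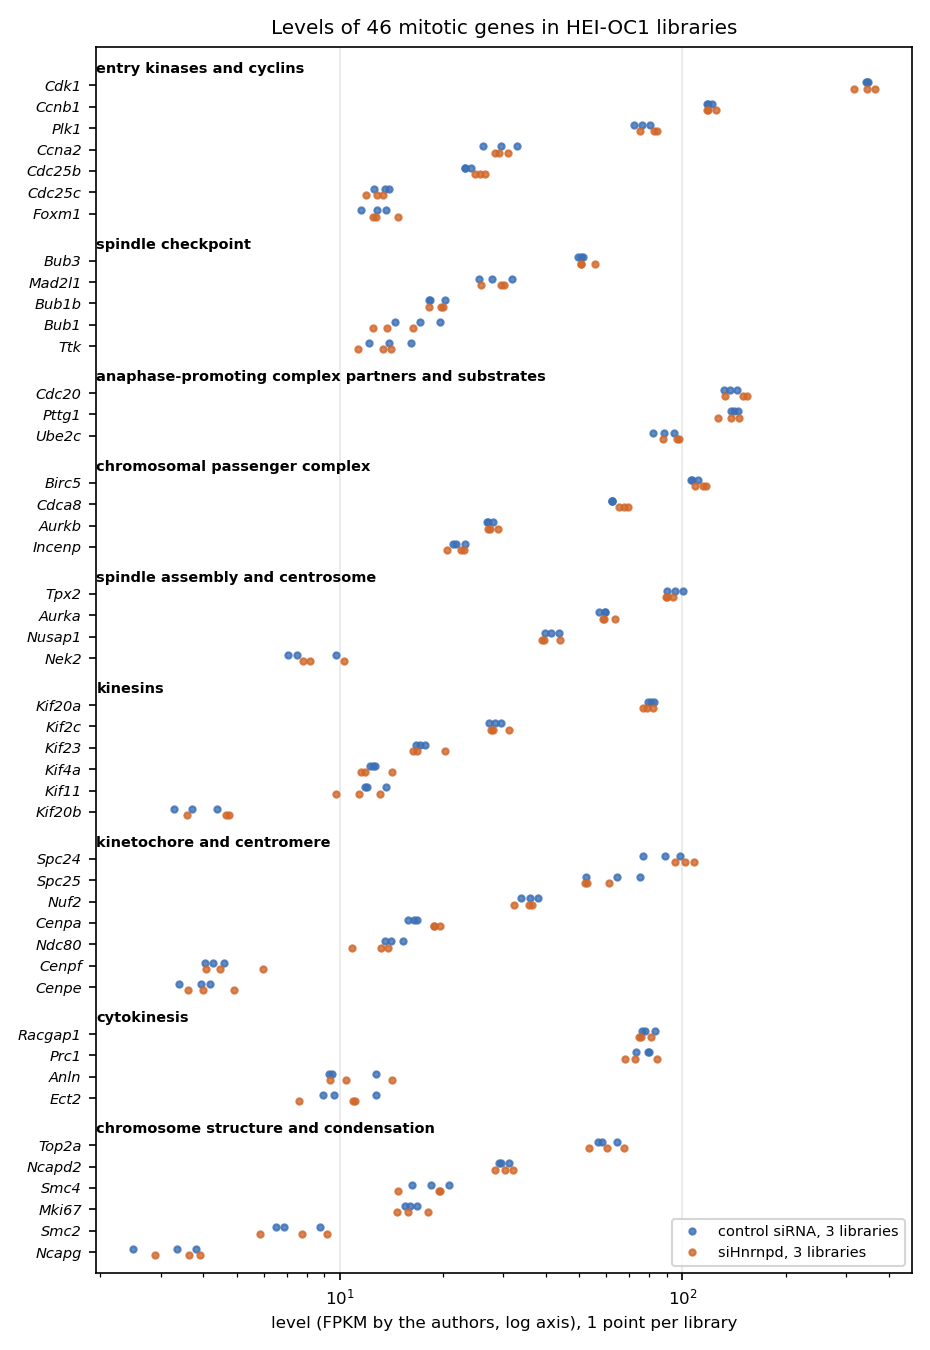
Level of each mitotic gene (FPKM, log axis) in the 3 control (blue) and 3 siHnrnpd (orange) libraries, 1 point per library, grouped by role. Levels span from about that of Ncapg (mean over 6 libraries 3.35 FPKM) to that of Cdk1 (344 FPKM), and the points of the groups lie close together for nearly every gene.

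Subunits of 1 complex differed in level per length. In the NDC80 complex, which links kinetochores to microtubules, the mean over 6 libraries was 94.7 FPKM for Spc24, 59.6 for Spc25, 35.3 for Nuf2 and 13.5 for Ndc80, a 7.04-fold span. In the chromosomal passenger complex it ran from 111 FPKM for Birc5 (survivin) through 64.8 for Cdca8 (borealin) and 27.6 for the kinase Aurkb to 22.1 for Incenp, a 5.00-fold span. Among condensin genes it ran from 30.2 FPKM for Ncapd2 through 18.2 for Smc4 and 7.49 for Smc2 to 3.35 for Ncapg, a 9.01-fold span. FPKM divides by the gene length that the authors used, which their tables imply to be 1012 to 11777 bases for these genes, with a median of 3862. Over the 46 genes the level was lower at greater length (Spearman's rho = -0.65, across genes, which share the libraries and the division by length). Over all 12268 tested genes rho was -0.31. How fully the reads of each gene aligned to the rat genome, which bears on all levels between genes given here, was not tested.

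The comparison of siHnrnpd with control libraries asks whether mitotic transcripts change level when Hnrnpd is reduced. None of the 46 genes was called: 0 passed an adjusted p under 0.05 in edgeR's quasi-likelihood test, against 10 of 12268 genes tested (0.0815%), and DESeq2 also called 0, against 1.41% of its 11453 genes with an adjusted p. The lowest adjusted p among them was 0.325 in edgeR and 0.378 in DESeq2. At an unadjusted p under 0.05 edgeR had 1 of the 46, Cenpa, against 11.0% of all genes, and DESeq2 had 2 of the 46. In DESeq2, 1187 of the 18718 genes it was run on had such a p. The log2 changes ran from -0.29 to 0.20 with a median of -0.0017 (all genes tested: 0.0054), and 35 of the 46 lay between -0.1 and 0.1. Positive changes were seen in 22 of the 46, or 47.8%, against 51.7% of all genes, and without siHnrnpd 3 the number of negative changes was 34 in place of 24.

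The intervals of these changes were narrow. In the fit of all 6 libraries, a 95% interval of the log2 change was taken gene by gene. For all 46 genes it stayed inside a 1.5-fold change in both directions, as it did for 76.4% of all genes tested. Within these intervals, the lowest bound was -0.58 on the log2 scale, for Bub1, barely inside the 1.5-fold limit, and the highest was 0.47. Intervals were not computed for the alternative fits. The median SE was 0.078 for the mitotic genes and 0.10 for all genes tested. The median SD of log2 CPM between control libraries was 0.080 against 0.12. All genes tested were not matched to the mitotic genes for level, and 0 of the 46 lay below the 50th percentile of FPKM. Whether genes of similar level had intervals as narrow was not tested. In 3 of the 46 genes (6.52%) the groups did not overlap, against 17.0% of all genes. All 3 were higher with the siRNA (8.42% of all genes) and 0 were lower (8.57% of all genes). The count of genes whose groups lay apart was thus below the share among all genes.

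**Figure D2:**
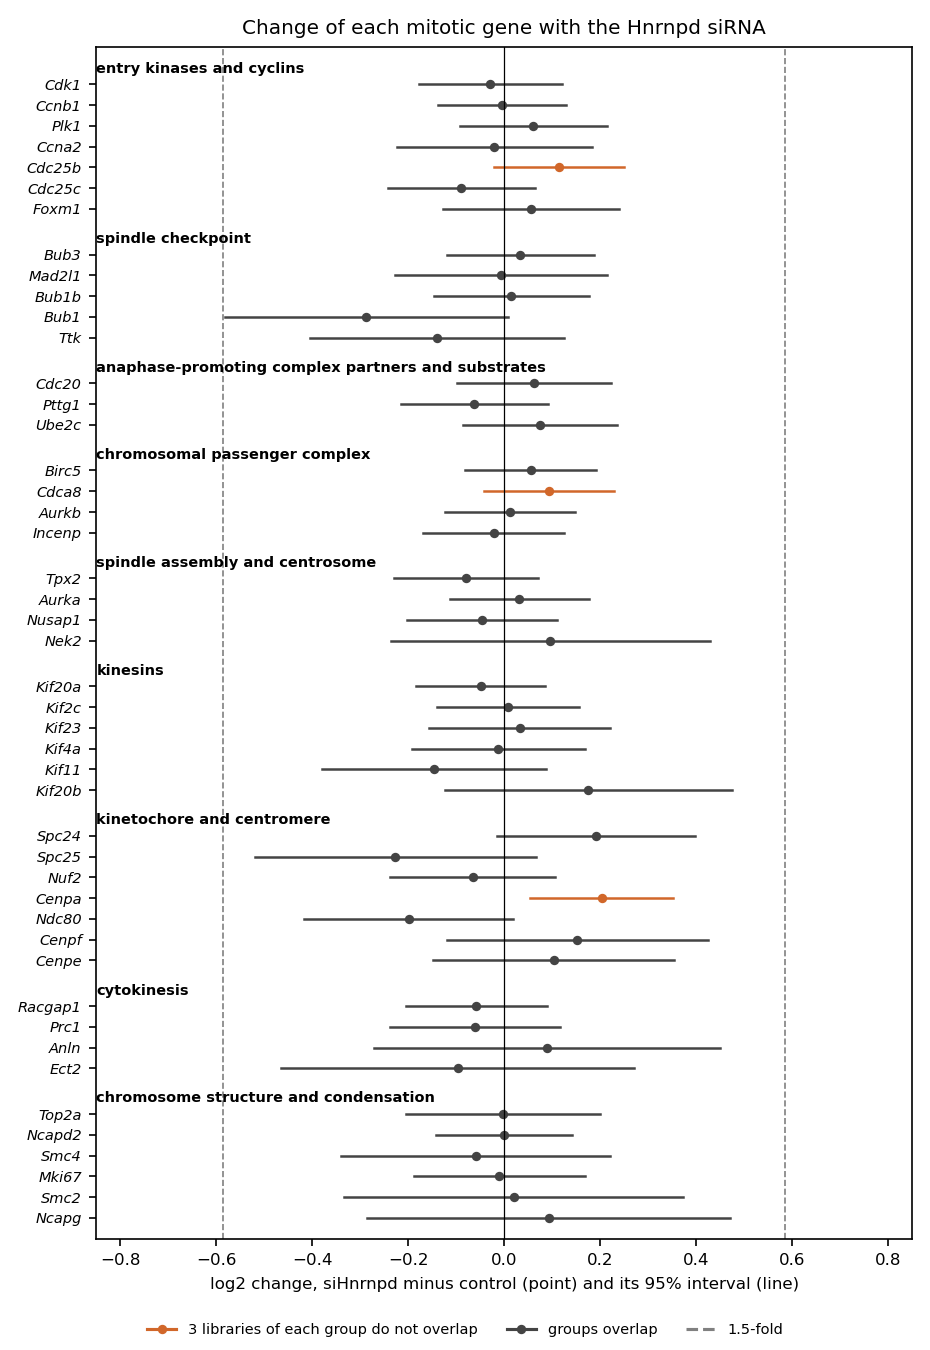
Log2 change of each mitotic gene, siHnrnpd minus control, with its 95% interval from edgeR, grouped by role, with dashed lines at a 1.5-fold change. Every interval lies between the dashed lines, and the 3 genes whose groups did not overlap, Cenpa, Cdca8 and Cdc25b, are in orange.

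Among the regulators of mitotic entry, the 7 measured genes had log2 changes of -0.090 to 0.11. Cdk1 had 569, 580 and 566 CPM in the controls and 569, 526 and 586 CPM in the siHnrnpd libraries, and its 95% interval was -0.18 to 0.12. Its siHnrnpd libraries lay on both sides of the controls. Ccnb1, the cyclin partner of Cdk1, had 230, 228 and 219 CPM against 222, 223 and 229 CPM, with an interval of -0.14 to 0.13. For cyclin A2 (Ccna2) the change was -0.020, for the polo-like kinase Plk1 0.061 and for Foxm1, the transcription factor of many G2 and mitotic genes, 0.055. The Cdk1-activating phosphatases differed in sign. Cdc25b had 76.0, 77.2 and 77.8 CPM in controls and 83.8, 81.6 and 84.8 CPM in siHnrnpd libraries, so each siHnrnpd library lay above each control, at a log2 change of 0.11 with an SE of 0.060 (edgeR adjusted p = 0.519). Cdc25c had a log2 change of -0.090 with an SE of 0.068 (edgeR adjusted p = 0.664), and its groups overlapped.

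The spindle checkpoint held the lowest log2 change. Bub1, a checkpoint kinase that recruits other checkpoint proteins to the kinetochore, had 104, 92.0 and 75.2 CPM in the controls and 65.5, 86.3 and 70.2 CPM in the siHnrnpd libraries. The siHnrnpd 2 library lay between control 2 and control 3, so the groups overlapped, and the log2 change of -0.29 with an SE of 0.13 did not pass (edgeR adjusted p = 0.455). Ttk, the kinase that starts checkpoint signalling, had 64.2, 56.2 and 47.7 CPM against 44.7, 56.2 and 51.6 CPM, a log2 change of -0.14. The inhibitory proteins Bub3, Bub1b and Mad2l1 had changes of 0.034, 0.014 and -0.0068. Downstream of the checkpoint, Cdc20 had 275, 292 and 296 CPM against 319, 278 and 304 CPM, a change of 0.062. Its partner enzyme Ube2c, which loads ubiquitin for the anaphase-promoting complex, had a change of 0.074, and its substrate Pttg1 one of -0.062.

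Of the kinetochore and centromere genes, Cenpa had the lowest p, which did not pass the test. Cenpa, the histone variant that marks centromeres, had 49.9, 49.6 and 46.1 CPM in controls and 57.5, 55.9 and 54.3 CPM in siHnrnpd libraries. All 3 siHnrnpd libraries lay above all 3 controls, at a log2 change of 0.20 (SE 0.066) with a 95% interval of 0.054 to 0.35 (edgeR unadjusted p = 0.0128, adjusted p = 0.325). Within the NDC80 complex the signs were mixed. Spc24 had 78.1, 91.6 and 98.2 CPM in controls and 109, 96.8 and 100.0 CPM in siHnrnpd libraries, a log2 change of 0.19, with siHnrnpd 2 under control 3. Its direct partner Spc25 had 111, 96.1 and 75.8 CPM against 75.9, 90.2 and 75.4 CPM, a change of -0.23. The outer subunits Ndc80 and Nuf2 had changes of -0.20 and -0.066, and for Ndc80 the libraries were 61.7, 57.6 and 53.5 CPM against 43.3, 53.2 and 54.0 CPM. None of the 4 passed (edgeR adjusted p = 0.480, 0.553, 0.484 and 0.797), and each overlapped between groups. The large kinetochore proteins Cenpe and Cenpf had changes of 0.10 and 0.15, and Cenpf stood at 68.8 CPM in siHnrnpd 3 against 47.9 to 53.4 CPM in the other 5 libraries.

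**Figure D3:**
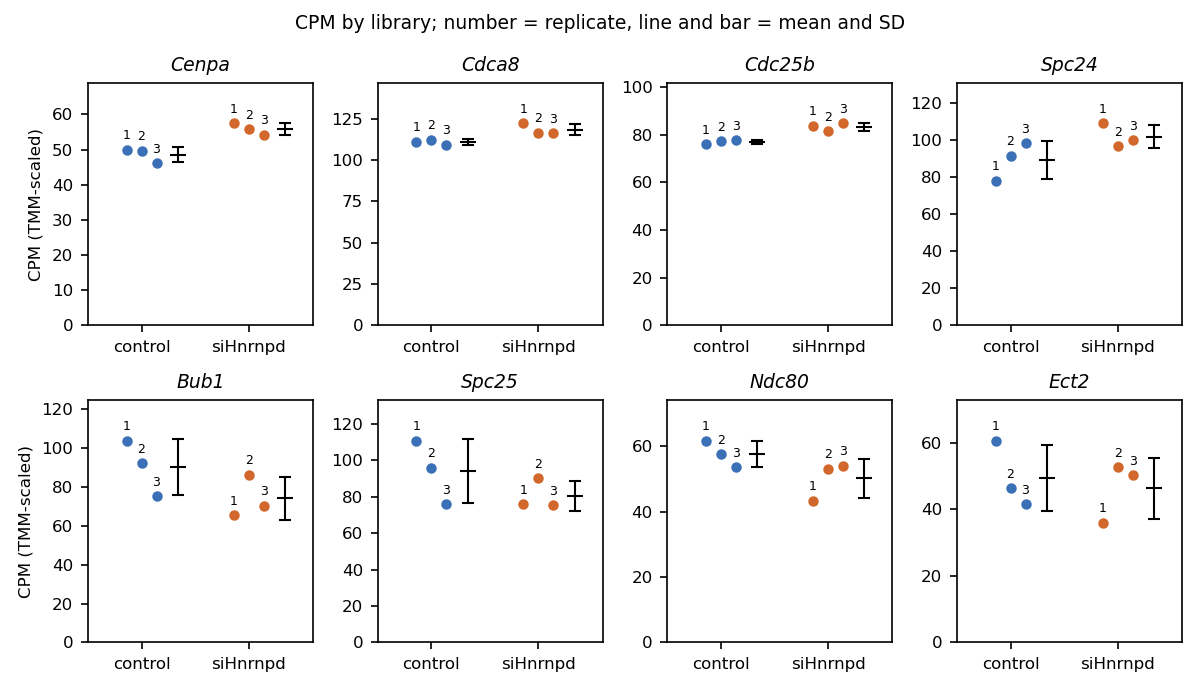
CPM of 8 mitotic genes in each library (points, numbered by replicate, axis from 0), with the mean and SD of each group (n = 3). The siHnrnpd points of Cenpa, Cdca8 and Cdc25b lie above all control points, while the groups of Spc24, Bub1, Spc25, Ndc80 and Ect2 overlap.

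In the chromosomal passenger complex, which corrects wrong attachments and later guides cytokinesis, Cdca8 had 111, 113 and 109 CPM in controls and 122, 117 and 116 CPM in siHnrnpd libraries. The groups lay apart, at a log2 change of 0.094 with an SE of 0.061 (edgeR adjusted p = 0.597). Its partners had changes of 0.055 for Birc5, 0.012 for Aurkb and -0.022 for Incenp, with overlapping groups. Among genes of spindle assembly, the change was -0.080 for Tpx2, the activator of the kinase Aurka, 0.031 for Aurka itself, -0.047 for the microtubule-binding Nusap1 and 0.096 for the centrosomal kinase Nek2. Of the 6 kinesins, Kif11, the motor that pushes spindle poles apart, had the lowest change at -0.15, and Kif20b, a motor of late cytokinesis, the highest at 0.18. Kif20a, Kif23, Kif2c and Kif4a lay between -0.049 and 0.032. Of the cytokinesis genes, the change was -0.058 for Racgap1, -0.061 for the midzone crosslinker Prc1, 0.089 for anillin (Anln) and -0.097 for Ect2, which activates RhoA at the cleavage furrow.

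The proliferation marker Mki67, which coats mitotic chromosomes, had 195, 183 and 182 CPM in controls and 169, 184 and 204 CPM in siHnrnpd libraries. Its log2 change was -0.0098, with a 95% interval of -0.19 to 0.17, and siHnrnpd libraries were both the lowest and the highest of the 6. DNA topoisomerase II alpha (Top2a), which untangles sister chromatids, had 424, 378 and 376 CPM against 348, 396 and 432 CPM, a change of -0.0030. The condensin genes Smc2, Smc4, Ncapg and Ncapd2 had changes of 0.020, -0.060, 0.093 and -3.6e-04.

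The mitotic genes also varied between libraries of the same group. Relative to the control mean, the median over the 46 genes was 0.049, -0.0011 and -0.046 on the log2 scale in the controls, and -0.073, -0.0099 and 0.049 in the siHnrnpd libraries. The medians of the groups overlapped. Control 1 was the highest of the 6 libraries in 18 of the 46 genes (39.1%, against 24.0% of all genes tested). For siHnrnpd 3 this number was 16 (34.8%, against 18.6%), and for siHnrnpd 1 it was 10 (21.7%, against 22.7%). The lowest library was siHnrnpd 1 in 15 genes (32.6%, against 20.5%) and control 3 in 13 (28.3%, against 13.5%). For control 1 and siHnrnpd 1 this was not confined to the 46 genes. Control 1 was the highest library in 44.0% of 100 other mitotic genes and 39.6% of 48 DNA replication rows, both described below. The lowest was siHnrnpd 1 in 45.0% and 35.4%. Less alike were control 3, the lowest in 16.0% and 6.25%, and siHnrnpd 3, the highest in 14.6% of the replication rows. Control 1 lay above control 3 in 33 of the 46, against 49.8% of all genes, and siHnrnpd 3 above siHnrnpd 1 in 35 of the 46, against 49.8% of all genes.

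Ect2 is an example of this variation. It had 60.7, 46.4 and 41.6 CPM in controls and 36.0, 52.7 and 50.2 CPM in siHnrnpd libraries, so that the highest and the lowest library were control 1 and siHnrnpd 1. Smc2 had 55.5, 44.1 and 40.5 CPM against 36.7, 49.0 and 56.2 CPM, and Anln 52.0, 39.2 and 37.1 CPM against 37.8, 42.5 and 56.1 CPM. In both, siHnrnpd 3 was the highest library and control 1 the next. Spc24 ran the other way, lowest in control 1 and highest in siHnrnpd 1. By role, the spindle checkpoint genes had medians of 0.18, 0.016 and -0.17 in controls 1 to 3, and the cytokinesis genes 0.19, -0.066 and -0.13. The chromosomal passenger genes had medians from -0.0061 to -0.0021 in the controls and from 0.0040 to 0.061 in the siHnrnpd libraries. Of the roles, this was the only one whose medians lay apart between groups. It is a median of 4 genes, and Incenp lay at -0.10 in siHnrnpd 2. Control values lie around 0 because each deviation is taken from the control mean.

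**Figure D4:**
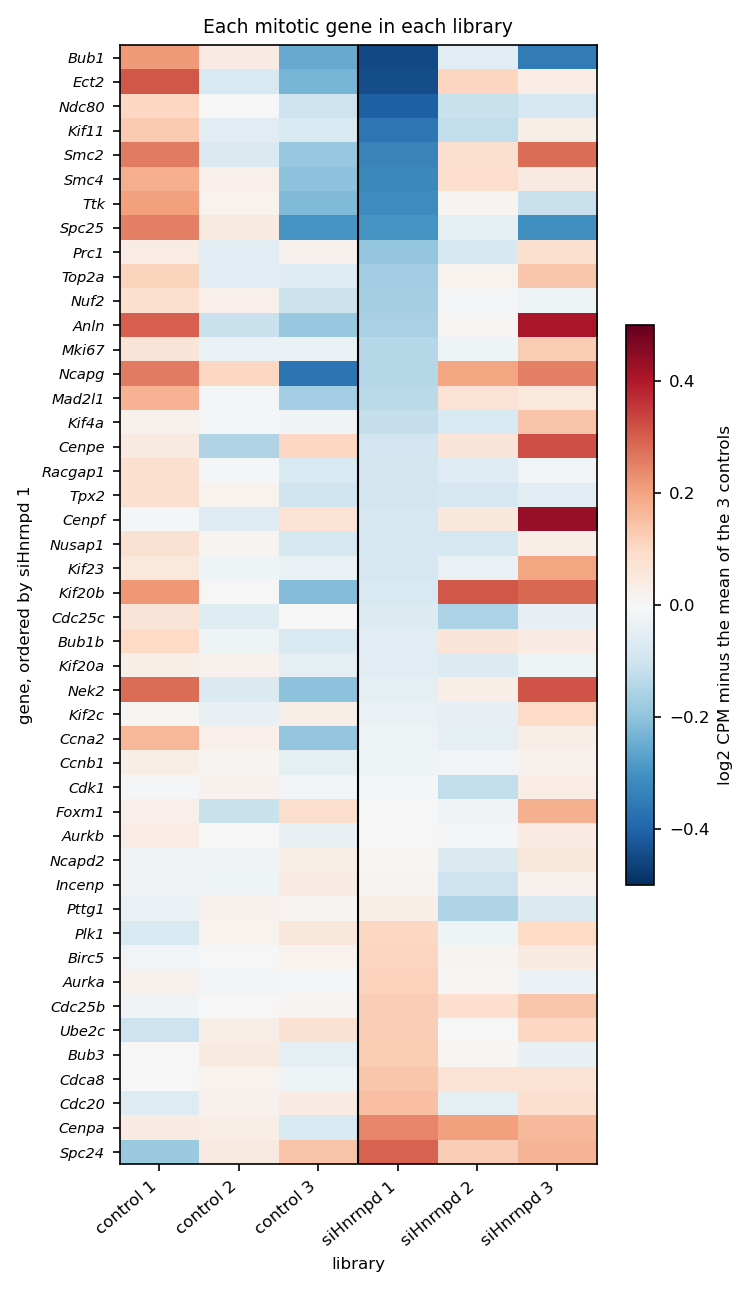
Log2 CPM of each mitotic gene (rows, ordered by siHnrnpd 1) minus its mean over the 3 controls, in each of the 6 libraries (columns; colour scale in log2 units). Bub1, Ect2, Smc2, Smc4 and Ttk are red in control 1 and blue in control 3 and siHnrnpd 1, and Spc24 shows the reverse.

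Gene length moved with this pattern in some libraries and not in others. Across the 46 genes, the deviation of a library from the mean of all 6 had a Spearman's rho with the implied gene length of 0.28, -0.18 and -0.041 in the controls, in order of number, and -0.59, 0.13 and 0.45 in the siHnrnpd libraries. Control 3, the lowest library in 13 of the 46 genes, had the rho of -0.041. Across all 12268 tested genes rho was 0.18, -0.12 and -0.017 in the controls and -0.23, -0.012 and 0.15 in the siHnrnpd libraries. These are correlations across genes that share their libraries and are given as a description. The log2 change between groups had a rho with length of -0.087 over the 46. Control 1 was the shallowest library at 28984535 counts, control 3 the deepest at 35842904 and siHnrnpd 1 next at 35534620. The part of length and depth in the pattern was not tested.

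Other genes of the mitotic pathway were not called either. Of 104 further listed genes, 100 had a row and were tested, 0 were called by edgeR or DESeq2, and at an unadjusted p under 0.05 edgeR had 3 of the 100, against 11.0% of all genes. The median log2 change was -0.024, with 65 negative and 35 positive (all genes: 5926 of 12268 negative). Without siHnrnpd 1 the median was 0.0077 with 45 negative, and without control 1 there were 52 negative, so no direction is given for them. In the fit of all 6 libraries, the 95% interval lay inside 1.5-fold in 96 of the 100. The 3 genes with an unadjusted p under 0.05 were Cenpm, a subunit of the inner kinetochore, Wee1, the kinase that restrains Cdk1, and Mybl2, a MuvB partner that activates mitotic genes. Cenpm had 49.9, 57.6 and 63.6 CPM in controls and 75.5, 65.0 and 67.1 CPM in siHnrnpd libraries, a log2 change of 0.28 (edgeR adjusted p = 0.355). Wee1 had 47.7, 42.4 and 37.4 CPM against 31.0, 38.2 and 36.2 CPM, a change of -0.28 (edgeR adjusted p = 0.397). Mybl2 had 146, 146 and 158 CPM against 180, 168 and 159 CPM, a change of 0.17 (edgeR adjusted p = 0.432). The groups lay apart for Cenpm and Mybl2 and overlapped for Wee1. Among the 100 genes, groups did not overlap in 8 (8.0%, against 17.0% of all genes tested). Of these, 4 were higher with the siRNA (8.42% of all genes) and 4 were lower (8.57% of all genes). Ncaph, a condensin subunit, had a change of -0.14, with groups apart. Groups overlapped for Cenpi, of the inner kinetochore (-0.34), and Pkmyt1, another kinase that restrains Cdk1 (0.23). They also overlapped for the kinetochore protein Zwint (-0.17) and the MuvB subunit Lin54 (-0.19). From Ncaph to Lin54, the edgeR adjusted p was 0.461 to 0.533.

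Genes of DNA replication, active in the S phase before mitosis, are the nearest group for comparison. Their 48 rows (Dbf4 had a second row, for a pseudogene) had a median log2 change of -0.064, with 42 negative, against 24 negative of the 46 mitotic genes and 5926 of all 12268. Over the alternatives the number negative ran from 32, with limma on FPKM, to 42, and it was 33 without siHnrnpd 2. None was called by edgeR or DESeq2, and 2 (4.17%, against 11.0% of all genes) had an unadjusted edgeR p under 0.05: Rpa1, a single-strand DNA binding protein (log2 change -0.22, edgeR adjusted p = 0.263), and Pole, a replicative polymerase (-0.16, edgeR adjusted p = 0.432). The groups did not overlap in 7 of the 48 (14.6%, against 17.0% of all genes tested), and all 7 were lower in the siHnrnpd libraries, as were 8.57% of all genes. Pola1, of DNA polymerase alpha, had a change of -0.18 with groups apart, and Orc5, of the origin recognition complex, one of -0.19 with overlapping groups. The difference between the replication and the mitotic genes was not tested, and both sets of changes come from the same libraries.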

How the data were processed

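RNA was sequenced from HEI-OC1 cells, 3 siHnrnpd and 3 control libraries. Per the submitters' processing notes, reads were aligned with TopHat2 and the build was mRatBN7.2; the version of TopHat2, the counter, the strand setting and the annotation were not given in the sources used here, so a gene cannot be separated from one that overlaps it on either strand. The authors deposited raw read counts for each gene and FPKM values that they had computed. Columns were matched to samples by siRNA name and number, and 0 columns stayed without a sample.

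The test was edgeR 4.0.16 under R 4.3.3 on the counts (filterByExpr, TMM scaling, two-sided quasi-likelihood test on a design with group alone) with Benjamini-Hochberg adjustment over 12268 genes. Intervals are 95% intervals from the fit's SE and degrees of freedom. Log2 CPM used a prior count of 2. Alternatives used DESeq2 1.42.0, limma 3.58.1 (voom, and log2(FPKM + 1) or log2(FPKM + 0.1), which understates changes of low genes), other scalings and filters, a replicate block and leaving out each library. The scripts were tested on simulated data. The members and lists were chosen with earlier results of these data known. Named genes were Hnrnpd, all members found, and the 8 other mitotic and 4 replication genes with the smallest p. No library was a copy of another within counting error.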

Additional observations from a re-analysis of the deposited data

How the results depend on the processing

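Of the 46 mitotic genes, 0 were called under each of the 16 alternatives, and the lowest adjusted p that any of them reached was 0.204. Their median log2 change ran from -0.053 to 0.029 and the number with a negative change from 18 to 34, so no direction is given for the group; 25 of the 46 changed sign under some alternative, and 21, among them Cenpa, Cdc25b, Cdca8, Bub1, Ndc80, Spc24 and Spc25, kept theirs. Their sizes moved: the log2 change ran from -0.41 to -0.19 for Bub1, from -0.36 to -0.10 for Spc25, from -0.27 to -0.10 for Ndc80 and from 0.092 to 0.26 for Spc24. The smallest sizes were without control 1 for Bub1, Spc25 and Spc24, and without siHnrnpd 1 for Ndc80. The number at an unadjusted p under 0.05 was 1 to 6, with 6 without control 3, where 1919 of all 12393 genes tested had one. The other mitotic genes and the replication genes also had 0 called throughout, with 0 to 9 and 1 to 9 at an unadjusted p under 0.05. Both counts of 9 were also without control 3.

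Over all genes tested the count called moved from 10 to 162 with DESeq2 run on all 18718 genes with its own filter, 147 with edgeR and no filter on low counts, 6 with upper-quartile scaling and 5 with limma on log2(FPKM + 0.1). On log2(FPKM + 1) limma called 0 with the minimum on mean FPKM and 0 without it, while an unadjusted p under 0.05 was seen in 1157 and 1604 genes. Leaving out 1 library gave 0 to 14. The causes were not tested. The replicate numbers showed no clear pairing of the libraries. The deviations of same-numbered libraries from their group means correlated at -0.26, 0.14 and 0.10, and not every library correlated best with its own number. With 3 libraries a group these correlations cannot decide whether the numbers pair the libraries. With the number as a replicate block edgeR called 0 genes in all, and so 0 mitotic genes. An unadjusted p under 0.05 was seen in that fit in 1062 genes, among them 2 of the mitotic genes and 1 of the other mitotic genes.

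Changes inside the 95% intervals given above are not resolved at this depth with 3 libraries a group.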

Other observations

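The balance between mitotic genes also differed from library to library. The ratio of Spc24 to Spc25 counts was 0.704, 0.954 and 1.30 in the controls, in order of number, and 1.44, 1.07 and 1.33 in the siHnrnpd libraries. The ratio of Cdc20 to Bub1 counts, the activator of anaphase against a checkpoint kinase that restrains it, was 2.65, 3.17 and 3.93 in controls and 4.88, 3.22 and 4.33 in siHnrnpd libraries. In both ratios control 1 was the lowest library and siHnrnpd 1 the highest, and the groups overlapped. These pairs were chosen after their values were seen, so no test is given.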
